A study of Mus musculus with 7 samples.

Results

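Cycling Ccl21a-high thymic epithelial cells (TECs) are cells that carry a high level of the chemokine transcript Ccl21a together with transcripts of dividing cells. They were taken from 7 libraries of droplet-based single-cell RNA sequencing by a rule with 3 conditions. The cell had no unique molecular identifier (UMI, a tag that counts a single captured RNA molecule) of Ptprc, which encodes the leukocyte surface protein CD45. Its Ccl21a value was above 4 on the deposited scale, the natural log of 1 plus UMIs per 10000 UMIs of the cell. At least 3 of the 8 genes Top2a, Birc5, Cdk1, Ube2c, Cenpf, Nusap1, Ccna2 and Mki67 had a UMI. The rule found 111 of 8453 cells, or 1.35% of the 8220 cells without a Ptprc UMI. These 9 genes and Ptprc chose the cells, so their values below are a description and carry no test.

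Each library held TECs of 3 pooled thymi, enriched on a Percoll gradient and flow-sorted as EpCAM+ CD45- cells, which the study calls total TECs and, in its methods, medullary TECs (mTECs), and each group was a single library. The Aire trace library came from 6-week-old C57BL/6 mice in which tamoxifen, at 2 mg every other day for 10 days, activates a CreERT2 driven from the Aire gene, so that ZsGreen marks cells that have used the gene and their descendants. The other 6 libraries came from C57BL/6 mice given 3 doses of 100 ug of an isotype control antibody or of anti-RANKL, which blocks the ligand of the receptor RANK. Isotype libraries were taken at week 2 (4 weeks of age) and week 10 (12 weeks of age), and anti-RANKL libraries at weeks 2, 4, 6 and 10 (4, 6, 8 and 12 weeks of age). With 1 library per group, no treatment was tested against another, and shares of cells carry exact binomial 95% intervals that cover counting error only.

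mTECs of the Ccl21a-high type secrete CCL21, the chemokine that draws newly selected thymocytes from the cortex into the medulla through the receptor CCR7, and they express the keratins of basal epithelium, Krt5 and Krt14. A separate branch of mTECs expresses Aire, which lets the cell transcribe genes of other tissues so that self-reactive T cells meet them, and this branch depends on RANK signals. The study proposes that a mixed pool of dividing precursors, known as transit-amplifying TECs, feeds both branches. A dividing cell copies its DNA in S phase with the help of the MCM helicase and PCNA, and then enters mitosis when cyclin B activates the kinase CDK1.

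Median depth was between 4299.5 and 16809 UMIs per cell across the libraries. Between the 21 pairs of libraries 50 cell barcodes were shared, at most 7 in a pair, and 2 of the cycling Ccl21a-high cells carried such a barcode. The sort left 233 cells with a Ptprc UMI, whose values are set beside those of the TECs below. Such droplets can hold free RNA or a TEC beside a leukocyte, and which of these gave their TEC transcripts was not tested. Among them 40 had Ccl21a above 4, and 3 of these also had at least 3 of the 8 cycle genes.

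The cycling Ccl21a-high cells carried the epithelial and the Ccl21a-high markers. Krt5 and Krt8 had a UMI in all 111 cells, Krt18 in 110, Epcam in 109, Krt14 in 106 and Itgb4 in 71. Of 10 T cell markers, Cd3e, Cd4 and Rag1 had no UMI in any of the 111 cells, which allows a share of cells with a UMI of up to 2.70%, and Cd3d, Cd8a and Cd8b1 each had a UMI in 1 cell. The kinase Lck had one in 14 cells, and 20 cells had a UMI of any marker of the list. Among 5 markers of other stroma, Pdgfrb and Cdh5 were at 0, Pdgfra was present in 3 cells, Pecam1 in 5 and Acta2 in 73. Among 5 B and myeloid genes, Itgax was at 0, Cd79a, Ms4a1 and Csf1r were present in 2 cells each and Lyz2 in 25. Detection alone separates the TEC types little, since among cycling cells with Ccl21a at most 4 Krt14 had a UMI in 93.2%, Krt5 in 68.3% and Itgb4 in 50.0% of cells, and the levels of these keratins are given below.

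Among the 111 cells, 36 came from the Aire trace library, 12 from isotype week 2, 21 from isotype week 10, and 12, 15, 10 and 5 from anti-RANKL weeks 2, 4, 6 and 10. Their Ccl21a value ran from 4.06 to 6.37 with a median of 5.02, against a median of 5.70 in the 2811 Ccl21a-high cells with none of the 8 genes, called non-cycling here. Of the 111 cells, 27 lay between 4 and 4.5, 28 between 4.5 and 5, 37 between 5 and 5.5, 17 between 5.5 and 6, and 2 above 6. On the linear scale the mean Ccl21a level was 170 UMIs per 10000, between 132 and 217 in the single libraries. Non-cycling Ccl21a-high cells had a mean of 303, between 252 and 326, and did not overlap with the cycling cells in any library's mean. The 562 cycling cells with Ccl21a at most 4, called Ccl21a-low here, had a mean of 9.73, between 2.43 and 20.2.

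**Figure D1:**
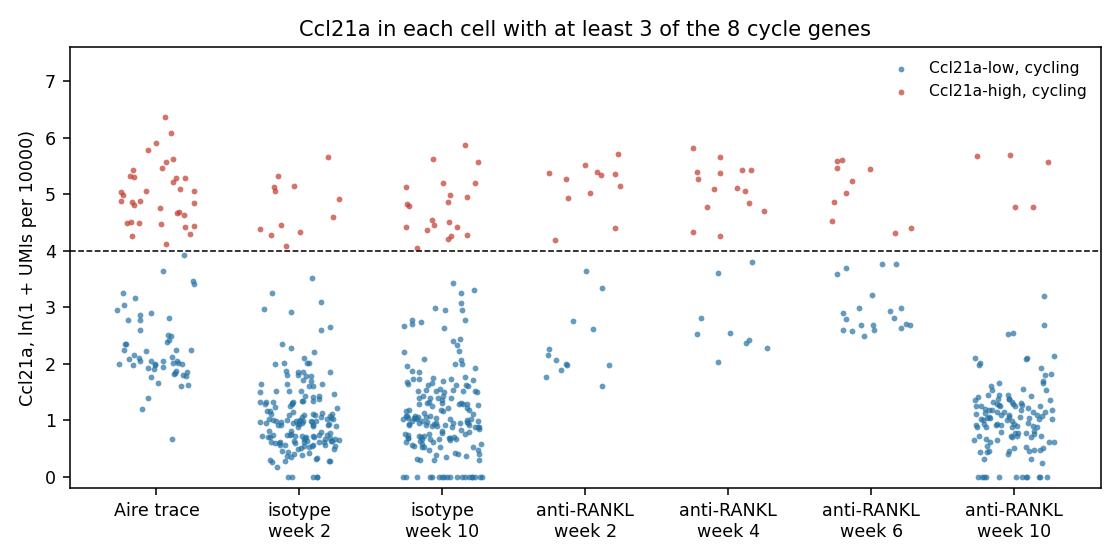
Ccl21a of every cell without a Ptprc UMI that has at least 3 of the 8 cycle genes, by library, on the natural log scale of 1 plus UMIs per 10000; points are cells, red above and blue at or below the dashed line at 4. Cells thin out toward the line: 4 cycling cells lie within 0.25 below it and 5 within 0.25 above it.

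Few cycling cells lay near the Ccl21a threshold. The 5 cells within 0.25 above it had a mean Krt5 level of 29.4 UMIs per 10000 and 0.0925 of Aire, and the 4 cells within 0.25 below it had 8.64 of Krt5 and 0.510 of Aire. Below the threshold, 116 cycling cells had a Ccl21a value above 2, 410 had one above 0 and at most 2, and 36 had none. In 6 of 7 libraries the median Ccl21a of cycling Ccl21a-low cells was below that of the cells with a Ptprc UMI. At the other threshold, the 33 cells with 3 cycle genes had a mean of 8.41 UMIs per 10000 of Hmgb2, a chromatin protein of dividing cells that the rule did not use, the 55 Ccl21a-high cells with 2 genes had 3.30, and the 474 cells with 1 gene had 1.14.

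The 8 cycle genes were each detected in 55.0% to 74.8% of the 111 cells. Birc5, which encodes the mitotic protein survivin, had a UMI in 83 cells, and Top2a, the topoisomerase that untangles copied DNA, in 82. Ccna2, the cyclin of S phase and early mitosis, had one in 74, and Cdk1, Ube2c and Mki67 had one in 73 cells each. All 8 genes were present in 23 cells and 3 genes in 33. In all, 37 cells (33.3%) had 7 or 8 of the genes, against 263 of 562 cycling Ccl21a-low cells (46.8%), whose median depth was 21697 UMIs against 12676.

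Genes of both arms of the cycle were detected. The summed level of the S phase list (genes of DNA replication) exceeded that of the G2 and mitosis list in 52 of the 111 cells (46.8%), and in 189 of 562 cycling Ccl21a-low cells (33.6%). The order was the other way in isotype week 2 (3 of 12 against 58 of 161 cells) and anti-RANKL week 6 (4 of 10 against 12 of 20). The S phase sum was also the higher one in 1681 of 2811 non-cycling Ccl21a-high cells, so that this order alone does not mark S phase. In the 50 cells with 3 or 4 of the 8 genes the median summed level was 8.43 UMIs per 10000 for the S phase list and 15.3 for the G2 and mitosis list. In the 37 cells with 7 or 8 genes it was 22.1 and 54.7, and their median depth was 19816 UMIs against 10874. Most of the 8 genes peak in G2 and mitosis, so a cell in S phase meets the rule less easily.

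Promoters of several of these genes are shown because the genes were chosen, or found, to move together, and because the CCAAT box and the CHR element TTTGAA are the elements through which the factor NF-Y and the DREAM complex time transcription of G2 and mitotic genes. Each line gives the 150 bases before the transcription start from RefSeq (GRCm38.p6), of which the last 26 of Cdk1, 9 of Cdc20 and 2 of Ccl21a overlap exons of GENCODE annotation, 5′ to 3′ on the strand of the gene, with CCAAT and TTTGAA of either strand in capitals (ATTGG and TTCAAA on the reverse). Top2a lies on the minus strand with its window at chr11:99024190-99024339, Cdk1 on the minus strand at chr10:69352913-69353062 and Mki67 on the minus strand at chr7:135716380-135716529. Hmgb2 lies on the plus strand at chr8:57511693-57511842, Cdc20 on the minus strand at chr4:118437344-118437493 and Ccl21a on the minus strand at chr4:42773992-42774141.
Top2a: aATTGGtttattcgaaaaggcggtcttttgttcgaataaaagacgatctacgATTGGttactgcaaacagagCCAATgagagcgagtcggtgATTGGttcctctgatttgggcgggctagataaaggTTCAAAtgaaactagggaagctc
Cdk1: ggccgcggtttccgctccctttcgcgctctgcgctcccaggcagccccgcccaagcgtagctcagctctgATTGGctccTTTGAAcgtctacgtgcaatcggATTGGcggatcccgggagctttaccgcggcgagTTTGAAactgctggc
Mki67: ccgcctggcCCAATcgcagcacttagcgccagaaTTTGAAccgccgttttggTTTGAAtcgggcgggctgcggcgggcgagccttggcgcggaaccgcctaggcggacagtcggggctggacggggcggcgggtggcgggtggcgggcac
Hmgb2: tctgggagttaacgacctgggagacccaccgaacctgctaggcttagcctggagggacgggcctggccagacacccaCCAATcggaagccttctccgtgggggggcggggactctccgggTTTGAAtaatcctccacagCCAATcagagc
Cdc20: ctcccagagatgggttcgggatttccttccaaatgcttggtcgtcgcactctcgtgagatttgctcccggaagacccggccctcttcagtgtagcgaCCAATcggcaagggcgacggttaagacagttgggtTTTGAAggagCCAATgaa
Ccl21a: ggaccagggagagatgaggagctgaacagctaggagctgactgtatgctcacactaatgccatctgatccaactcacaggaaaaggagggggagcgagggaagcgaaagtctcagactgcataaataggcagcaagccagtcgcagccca

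The 5 cycle-gene windows shown hold both elements, which is not true of all such genes, and that of Ccl21a holds neither. Those of Cenpf and Ccnb2 hold CCAAT but not TTTGAA. Of 27025 mouse promoters in the same table, 25.3% hold a CCAAT and 9.24% a TTTGAA in these 150 bases, and 2.32% hold both. Of the 37 genes of the G2 and mitosis list found in the table, out of 43, 75.7% hold a CCAAT, 27.0% a TTTGAA and 27.0% both. For the S phase list, with 28 of 36 genes found, the shares were 60.7%, 10.7% and 3.57%. Birc5 holds neither in this window. A match says only that the letters are there.

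The share of Ccl21a-high cells that cycled was higher in both isotype libraries than in every anti-RANKL library. It was 7.5% (12 of 160 cells, 95% interval 3.94 to 12.7%) in the isotype library of week 2 and 10.1% (21 of 208, 6.36 to 15.0%) in that of week 10. In the anti-RANKL libraries it was 1.75% (12 of 684, 0.910 to 3.04%) at week 2, 1.59% (15 of 944, 0.892 to 2.61%) at week 4, 2.99% (10 of 334, 1.44 to 5.44%) at week 6 and 2.03% (5 of 246, 0.663 to 4.68%) at week 10. At week 2 and at week 10 the interval of the treated library lay below that of the isotype library of the same week, at 0.234 and 0.201 times its share. Over the other settings tried the ratio ran from 0.174 to 0.340 at week 2 and from 0.0995 (at least 4 cycle genes) to 0.382 (Ccl21a above 5) at week 10. In the Aire trace library, at an age between the isotype libraries, 4.11% cycled (36 of 875, 2.90 to 5.65%). Of all cells without a Ptprc UMI, the cycling Ccl21a-high cells made up 1.06% and 1.68% in the isotype libraries of weeks 2 and 10. They made up 1.01%, 1.03%, 1.39% and 0.427% in anti-RANKL weeks 2, 4, 6 and 10, and 2.73% in the Aire trace library. On this count the isotype and anti-RANKL libraries overlapped.

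Depth changes the share of Ccl21a-high cells that cycled, since a deeper cell shows more of the 8 genes. With every cell thinned to 2000 UMIs, which left out 111 cells of anti-RANKL week 4 and 61 of week 6, it was 2.86% and 2.52% in the isotype libraries of weeks 2 and 10. It was 0.512%, 0.851%, 1.02% and 0.573% in the anti-RANKL libraries of weeks 2, 4, 6 and 10, and 1.47% in the Aire trace library. The ranges of isotype and anti-RANKL libraries still did not overlap, but the counting intervals did (0.785 to 5.52% against 0.0104 to 2.26% at week 10). The thinned shares rest on few cells, an average of 5.25 cycling cells over 20 thinnings in the isotype library of week 10 and 1.40 in the anti-RANKL library of that week.

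**Figure D2:**
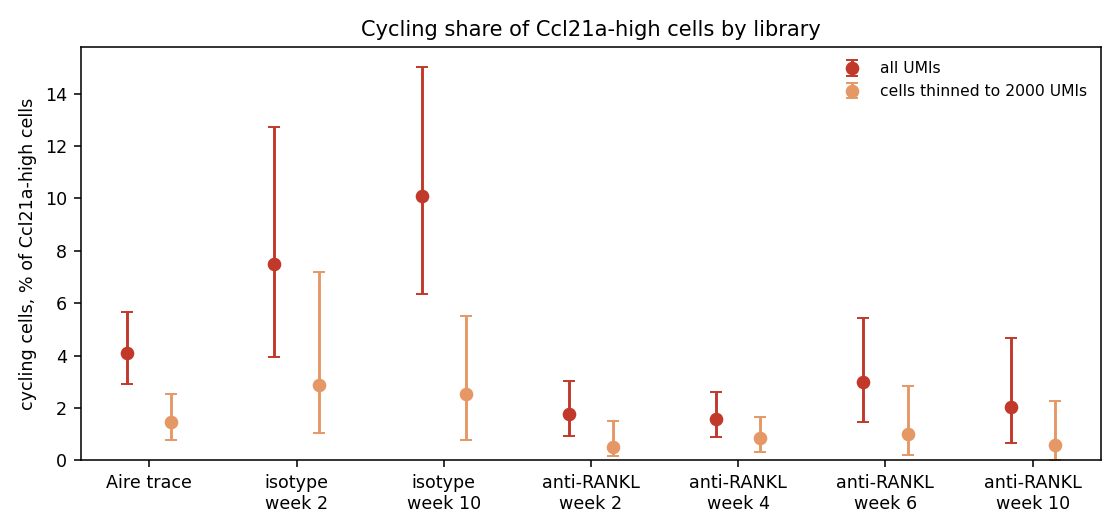
Percent of Ccl21a-high cells with at least 3 of the 8 cycle genes in each library, with all UMIs and with each cell thinned to 2000 UMIs; bars are exact binomial 95% intervals. The isotype points, at 7.5 and 10.1% with all UMIs, lie above the anti-RANKL points, at 1.59 to 2.99%.

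The share counted the other way, of cycling cells that were Ccl21a-high, was lowest at week 10 after anti-RANKL and highest at its week 4. It was 6.94% and 10.7% in the isotype libraries, 48.0%, 62.5%, 33.3% and 3.76% in the anti-RANKL libraries of weeks 2, 4, 6 and 10, and 39.6% in the Aire trace library. Ccl21a-high cells made up 14.2% and 16.7% of the isotype libraries, 57.8%, 65.1%, 46.5% and 21% of the anti-RANKL libraries and 66.4% of the Aire trace library. Cycling cells made up 16.6% and 16.9% of the Ccl21a-low cells under isotype antibody, 2.6%, 1.78%, 5.19% and 13.8% under anti-RANKL, and 12.4% in the Aire trace library. At week 10 after anti-RANKL, 13.8% of Ccl21a-low and 2.03% of Ccl21a-high cells cycled.

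Cycling Ccl21a-high cells were then compared with non-cycling Ccl21a-high cells of the same library. Each library gave 1 mean level per class, and limma was run on the 7 paired differences of log2(UMIs per 10000 + 0.5), with Benjamini-Hochberg adjustment over 5593 genes. Of these, 417 (7.46%) were higher and 367 (6.56%) lower in cycling cells at an adjusted p under 0.05, and the median difference over all genes was -0.03. Of the 417 genes, 74 stood in the lists of cycle genes, of which 76 were tested. These genes describe the state that the rule selected and are no independent evidence of it, so they are given with their size and error only.

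In the S phase list, which holds the enzymes and licensing factors of DNA replication, 26 of 26 tested genes were called higher, with a median difference of 0.84 on the log2 scale. Rrm2, a subunit of the enzyme that makes deoxynucleotides, was higher by 1.70 (SE 0.15), Tyms, the thymidylate synthase, by 1.62 (SE 0.12), Pcna, the sliding clamp, by 1.33 (SE 0.15) and Mcm6, of the replicative helicase, by 1.09 (SE 0.14). In the G2 and mitosis list, 33 of 34 genes were called higher, with a median of 1.22. Cks2, which binds CDK1, had a difference of 3.03 (SE 0.13), Cdc20, which starts the exit from mitosis, 2.21 (SE 0.15), and Ccnb1, cyclin B1, 1.57 (SE 0.21). The exception in this list was Pttg1, the separase inhibitor securin, at -0.04 (SE 0.16). Of the 36 S phase and 43 G2 and mitosis genes listed, 10 and 9 were not tested. The level minimum applied to both classes together, so a gene could pass through the cycling cells alone. Mean levels were 1.30 in cycling against 0.0280 in non-cycling cells for Rrm2, and 1.25 against 0.0155 for Ccnb1. The counts of called genes are thus in part set by this filter.

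A chromatin gene, Hmgb2, and a microtubule gene, Stmn1, had the largest differences. Hmgb2, a high mobility group protein that bends DNA, was at 13.9, 14.4, 14.3, 14.3, 17.8, 17.9 and 7.16 UMIs per 10000 in the cycling cells of the Aire trace, isotype week 2, isotype week 10 and anti-RANKL week 2, 4, 6 and 10 libraries. In the non-cycling cells it lay between 0.785 and 1.05, far below every library of the cycling cells, and the difference was 3.33 (SE 0.12). Stmn1, which destabilizes microtubules, had a median of 12.9 (7.71 to 15.7) against 0.873 (0.599 to 0.996), a difference of 3.28 (SE 0.12). H2afz, the histone variant H2A.Z, had a median of 21.5 (16.4 to 25.4) against 4.42 (4.07 to 4.98), a difference of 2.12 (SE 0.09). In the list of high mobility group, variant histone and tubulin genes 15 of 16 were called higher, with a median of 1.24.

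Of the regulators that precede S phase, 4 of 8 tested genes were higher. Ccnd2, cyclin D2, had a median of 3.25 UMIs per 10000 (2.39 to 4.52) in cycling and 1.23 (1.15 to 3.12) in non-cycling cells, and was higher in 6 of 7 libraries (log2 difference 0.86, SE 0.14, adjusted p 0.000226), a call that was lost against cells of matched depth. Ccne1 (cyclin E1), Cdk4 and Cdk2 were the other 3. Matched depth means that comparison cells below the lower quartile of depth of the library's cycling Ccl21a-high cells were left out. Among 12 genes that restrain the cycle, 2 were higher and 3 lower. Cdkn2c, an inhibitor of CDK4 and CDK6, was at 1.06 (0.690 to 1.5) against 0.310 (0.224 to 0.528) with no overlap between the classes (difference 0.95, SE 0.13, adjusted p 3.59e-05), and Cdkn2d of the same family was the other gene that rose. Gas1, a growth-arrest gene of the cell surface, was lower in 7 of 7 libraries (difference -0.93, SE 0.15, adjusted p 0.000207), but the call was lost against cells of matched depth. The antiproliferative gene Btg2 was lower as well (-0.66). Of 11 chromatin and DNA methylation genes 5 were higher, among them Ezh2, the methyltransferase of Polycomb (0.84, SE 0.11, adjusted p 2.60e-05), and Dnmt1, which copies DNA methylation (0.39).

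The keratins Krt5 and Krt14 of the Ccl21a-high type did not pass the test. Krt5 was at 23.2, 22.5, 11.7, 39.0, 18, 15.8 and 19.2 UMIs per 10000 in the cycling cells of the libraries in the order above, and at 25, 21.4, 16.7, 23.1, 17.0, 15.0 and 17.1 in the non-cycling cells. The classes overlapped throughout (log2 difference 0.08, SE 0.10, adjusted p 0.690). Krt14 was at -0.31 (SE 0.11, adjusted p 0.0593). Aire differed by -0.02 (SE 0.12, adjusted p 0.937) and Fezf2, a factor that drives other self-antigen genes, by 0.18 (SE 0.10, adjusted p 0.294). None of 13 genes of RANK, CD40, lymphotoxin and NF-kB signalling was called. For none of these genes does the missed threshold show equality.

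Of 20 tested genes of the Ccl21a-high programme 10 were lower in the cycling cells and none higher, with a median of -0.37. Mgp, the matrix Gla protein that inhibits calcification, had a median of 4.12 UMIs per 10000 (1.84 to 10.2) against 11.9 (8.76 to 13.0) and was lower in 7 of 7 libraries (log2 difference -1.33, SE 0.15, adjusted p 3.55e-06), a call that was lost against cells of matched depth, where 3 of the 20 genes were lower. Gpx3, a secreted glutathione peroxidase outside that list, was at 2.80 (1.73 to 10.5) against 11.4 (7.51 to 13.1), a difference of -1.61 (SE 0.17, adjusted p 2.15e-06). For both genes the ranges overlapped only through the anti-RANKL week 10 library, which had 5 cycling cells. The summed level of mitochondrially encoded genes was 504 UMIs per 10000 in these cells, against 180 to 336 in the cycling cells of the other libraries and 191 to 363 in non-cycling cells, and its part in the result was not tested. Id3, which blocks basic helix-loop-helix factors, was at 3.74 (3.07 to 4.30) against 6.5 (5.68 to 8.58) without overlap (-0.83, SE 0.10, adjusted p 1.39e-05).

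All 6 tested genes of the cortical TEC list were lower, with a median of -1.01. Tbata, a gene of thymic stroma, was at 2.77, 1.21, 1.12, 2.63, 3.15, 1.24 and 1.22 UMIs per 10000 in the cycling and 2.96, 3.27, 6.29, 12.3, 14.5, 5.62 and 7.69 in the non-cycling cells, lower in every library (log2 difference -1.63, SE 0.19, adjusted p 5.69e-06). The ranges overlapped only between the 3.15 of anti-RANKL week 4 and the 2.96 of the Aire trace library. Ccl25, the chemokine that draws thymocyte progenitors through CCR9, was at 0.329 (0.0898 to 1.19) against 1.73 (0.953 to 3.11), a difference of -1.33 (SE 0.18, adjusted p 3.82e-05). Ctsl, the cathepsin that prepares peptides for MHC class II, was at 14.1 (8.23 to 25) against 29.5 (24.3 to 40.1), a difference of -1.13 (SE 0.14, adjusted p 1.69e-05). The serine protease Prss16 (-0.88) and the thymoproteasome subunit Psmb11 (-0.74) passed at low levels. The summed level of the list's 11 genes was 12.4 to 31.1 in cycling and 33.5 to 59.4 in non-cycling cells, without overlap. These genes also mark cortical TECs, whose part in the result was not tested.

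Immediate early and heat shock genes, which respond within minutes to growth factors and to stress of dissociation, were lower in 12 of 17 cases, with a median of -0.48. Junb was at 11.0 (6.99 to 12.1) against 16.3 (11.7 to 22.9) UMIs per 10000 (log2 difference -0.67, SE 0.09, adjusted p 2.34e-05), and Fos was at 16.8 (12.2 to 23.7) against 19.9 (13.6 to 30.6) with wide overlap (-0.33, SE 0.09, adjusted p 0.0147). Without pairing by library 1 of the 17 genes was lower. Epcam, the adhesion protein of the sort, was higher in every library at 10.6 (7.43 to 17.0) against 7.15 (4.57 to 9.99) (0.60, SE 0.09, adjusted p 6.96e-05).

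Cycling cells were also deeper. The median UMIs per cell were higher in 7 of 7 libraries, by 0.86 on the log2 scale or 1.82-fold (exact sign-flip permutation test over 7 libraries, two-sided, p 0.0156, the smallest it can give, adjusted p 0.0625 over 8 values). A deeper cell shows more of the 8 genes, so that the rule itself favours depth. Matched depth sets only a lower limit. It kept 12 of 107 non-cycling cells in isotype week 2 and 29 of 144 in isotype week 10. The part of the smaller class in calls that were lost was not tested. Against non-cycling cells of matched depth 273 genes were higher and 129 lower. The cortical list then had 5 of 6 genes lower and the immediate early list 5 of 17, and Apoe, at -0.60 against all non-cycling cells, was at 0.05. Without the deepest 5% of cells of each library, an alternative chosen after the data were seen, 241 genes were higher and 179 lower. No doublet caller was run, and the part of doublets in these counts was not tested.

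**Figure D3:**
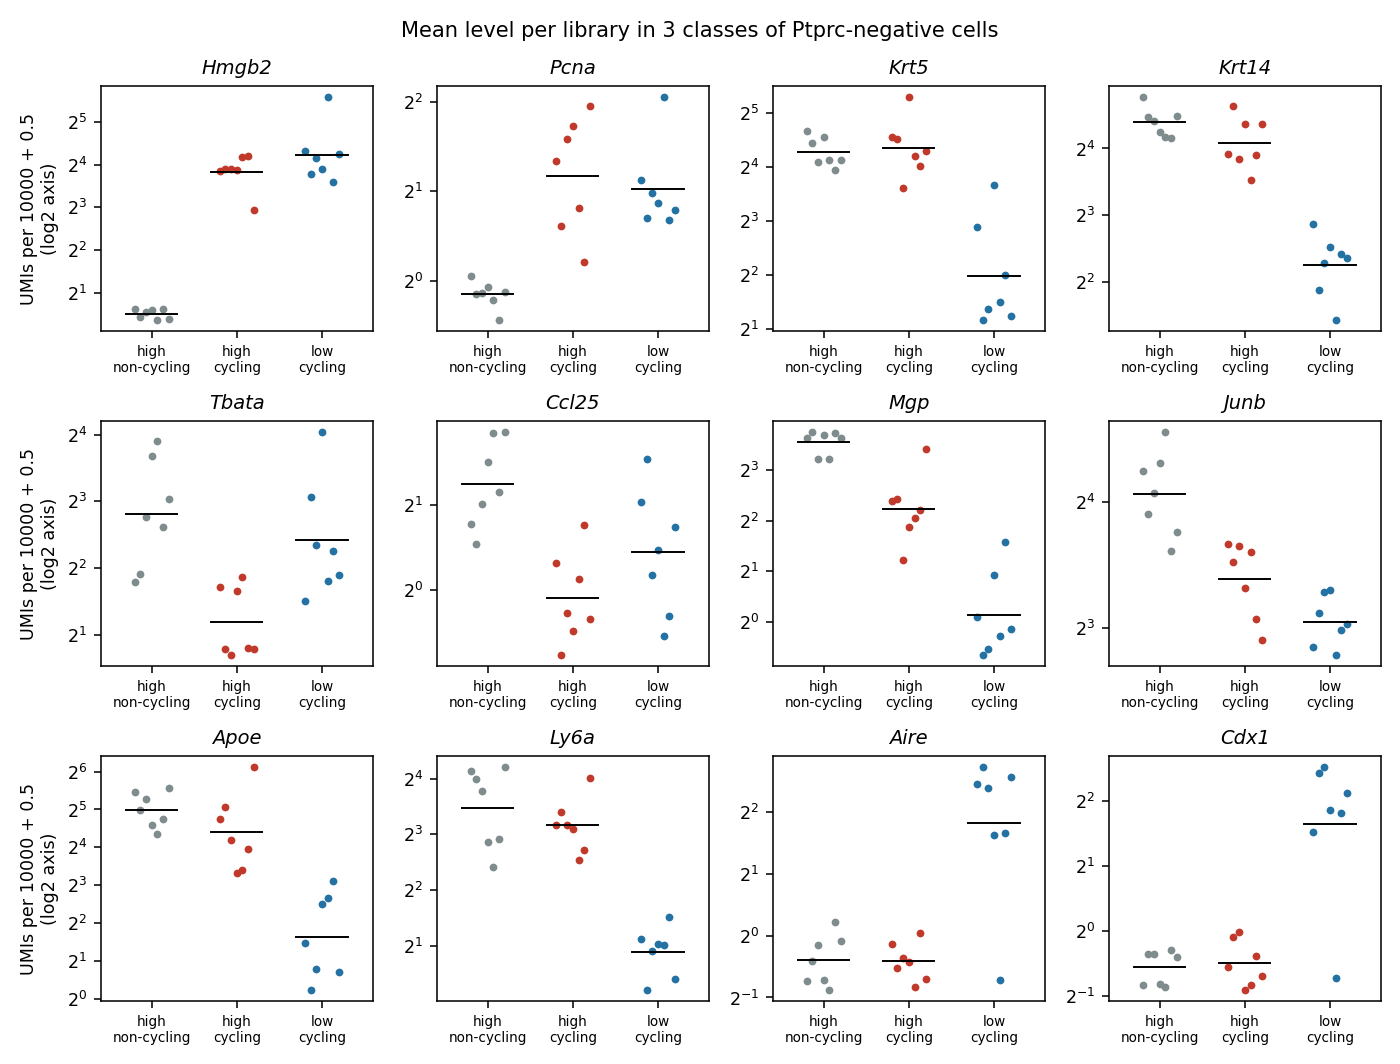
Mean level of 12 genes per library (points, 7 per class) in non-cycling Ccl21a-high, cycling Ccl21a-high and cycling Ccl21a-low cells, as UMIs per 10000 plus 0.5 on a log2 axis; black lines are means of the log2 values. Hmgb2 separates both cycling classes from the non-cycling one, Krt5 is lower in the Ccl21a-low class except for 1 library at 12.2, which lies above the lowest Ccl21a-high cycling library at 11.7, and Mgp lies lower in cycling than in non-cycling Ccl21a-high cells.

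The second comparison set the same 111 cells against cycling Ccl21a-low cells, of which 92.3% had an Aire UMI when pooled, with 53.8%, 11.1% and 80.0% in anti-RANKL weeks 2, 4 and 6 and at least 92.0% in each other library. Of 5520 genes, 393 (7.12%) were higher and 281 (5.09%) lower in the cycling Ccl21a-high cells, and the median difference was -0.01. None of 31 S phase genes and none of 42 G2 and mitosis genes was called in either direction, with medians of 0.14 and 0.06. At an unadjusted p under 0.05 there were 721 genes higher and 657 lower among all genes. The median UMIs per cell differed by -0.36 on the log2 scale (exact sign-flip permutation test over 7 libraries, two-sided, p 0.266). Without anti-RANKL week 4 the depth difference was -0.632, lower in 6 of 6 libraries (same test, p 0.0313, the smallest it can give, adjusted p 0.05). Without anti-RANKL week 10 it was -0.209. Both classes were chosen by the same 8 genes, so that likeness of their cycle genes is in part given by the rule.

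The 9 cycling Ccl21a-low cells of the anti-RANKL week 4 library stood apart. Their summed level of 10 T cell markers was 30.9 UMIs per 10000, against 0.107 to 1.37 in the other 6 libraries of that class and 0.0375 to 0.306 in the cycling Ccl21a-high cells. That level is a mean over the 9 cells, and 3 of the 9 had a UMI of any of these markers. The summed level of late and other TEC markers in the 9 cells was 50.1, against 1.06 to 6.14 in the other 6 libraries. Their Aire level was 0.108 UMIs per 10000, against 2.59 to 6.09 in the other 6 libraries. Without this library 524 of 5480 genes were higher and 502 lower. Beside that share over all genes, 2 of 32 S phase genes and 5 of 40 G2 and mitosis genes were higher. Without cells that had a UMI of a T cell marker 251 were higher and 175 lower, over 6 libraries.

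The programme of the Ccl21a-high type separated the cycling classes. Of 19 tested genes of its list 15 were higher in cycling Ccl21a-high cells and none lower, with a median of 1.16 on the log2 scale. Krt5 was at 6.88, 1.74, 2.08, 12.2, 2.3, 3.49 and 1.85 UMIs per 10000 in the cycling Ccl21a-low cells, below the cycling Ccl21a-high cells of the same library in 7 of 7 cases, while the ranges over libraries overlapped, since the 12.2 of anti-RANKL week 2 lay above the 11.7 of the lowest cycling Ccl21a-high library (difference 2.39, SE 0.20, adjusted p 5.36e-06). Krt14 was at 14.6 (11.0 to 24.5) against 4.63 (2.18 to 6.76) without overlap (1.84, SE 0.17, adjusted p 1.53e-05). Ly6a, the stem cell antigen Sca-1, was at 8.49 (5.29 to 15.6) against 1.51 (0.652 to 2.35), a difference of 2.28 (SE 0.24, adjusted p 3.36e-05). Apoe, an apolipoprotein, had the largest difference, 2.76 (SE 0.49, adjusted p 0.00209), from 17.8 (9.55 to 68.9) against 2.27 (0.679 to 8.23). Trp63, the p63 factor of basal epithelium, was at 1.05 (0.560 to 2.06) against 0.254 (0.141 to 0.677), a difference of 0.92 (SE 0.21, adjusted p 0.00867).

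Targets and regulators of developmental signals were higher too. Of 15 tested genes of the Wnt, BMP, Notch and Id list 10 were higher and none lower, with a median of 0.53. Id1, a target of BMP signals that restrains differentiation, was at 3.16 (2.38 to 4.39) against 0.298 (0.108 to 0.513) UMIs per 10000 (difference 2.22, SE 0.14, adjusted p 1.01e-06). Id3 differed by 1.67 (SE 0.17, adjusted p 2.39e-05), Id2 by 1.46, the Notch target Hes1 by 1.31 (SE 0.20, adjusted p 0.000561) and the ligand Wnt4 by 0.96 (SE 0.17, adjusted p 0.00152). Of these, Id1 and Wnt4 did not differ detectably from non-cycling Ccl21a-high cells (-0.09, SE 0.12, adjusted p 0.672, and -0.19, SE 0.10, adjusted p 0.243). Among 14 basement membrane and adhesion genes 6 were higher, such as the type IV collagen chain Col4a1 (0.96, SE 0.16, adjusted p 0.00136).

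Acta2, Ifi27l2a and Isg15 stood among the 12 largest differences. Acta2, smooth muscle actin, was at 8.11 (2.01 to 12.7) against 0.326 (0.140 to 2.69) UMIs per 10000 (difference 2.56, SE 0.28, adjusted p 5.40e-05), and at 7.21 (3.63 to 11.1) in non-cycling Ccl21a-high cells. Acta2 is also a marker of pericytes and smooth muscle. The summed level of the 5 stroma markers was 2.06 to 12.7 UMIs per 10000 in the cycling Ccl21a-high and 0.262 to 2.72 in the cycling Ccl21a-low cells, with Pdgfrb and Cdh5 at 0 in the former, and their part in the result was not tested. Ifi27l2a, an interferon-induced gene, was at 62.3 (41.9 to 76.4) against 10.6 (4.95 to 23.2), a difference of 2.45 (SE 0.25, adjusted p 2.25e-05), and the ubiquitin-like modifier Isg15 at 5.35 (3.10 to 8.06) against 0.600 (0.325 to 1.48), a difference of 2.25 (SE 0.25, adjusted p 5.40e-05). In non-cycling Ccl21a-high cells Ifi27l2a was at 56.0 (37.0 to 71.0) and Isg15 at 7.66 (3.58 to 10.7), and neither difference from the cycling cells passed the test (0.20, SE 0.09, adjusted p 0.172, and -0.25, SE 0.13, adjusted p 0.230).

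Genes of the Aire branch were lower in the cycling Ccl21a-high cells in 11 of 15 cases and higher in 1, with a median of -0.83. Aire was at 0.410, 0.199, 0.281, 0.245, 0.0646, 0.529 and 0.116 UMIs per 10000 in the libraries in the order above, against 4.98, 6.09, 4.70, 2.59, 0.108, 2.65 and 5.43 in the cycling Ccl21a-low cells (difference -2.23, SE 0.30, adjusted p 0.000222). The classes overlap only through anti-RANKL week 4. Fezf2 was at 2.2 (1.42 to 2.99) against 5.75 (1.63 to 7.40), a difference of -0.87 (SE 0.21, adjusted p 0.0146). Cyba, a subunit of the phagocyte oxidase, was at 1.79 (0.806 to 2.76) against 10.9 (3.20 to 13.7) without overlap (-2.16, SE 0.20, adjusted p 1.53e-05), and the intestinal factor Cdx1 at 0.181 (0.0315 to 0.484) against 3.13 (0.108 to 5.27) (-2.16, SE 0.26, adjusted p 9.20e-05). The exception was Irf7, an interferon regulator, which was higher by 1.67 (SE 0.26, adjusted p 0.000635).

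Of 14 genes of RANK, CD40, lymphotoxin and NF-kB signalling 4 were lower and 1 higher. Cd40, the receptor for CD40 ligand of T cells, differed by -0.83 (SE 0.21, adjusted p 0.0196), and Tnfrsf11b, the decoy receptor of RANKL, by -0.86. Nfkbia and Birc3, which NF-kB induces, differed by -0.58 and -0.55, and Tnfaip3, a brake on NF-kB, was the gene that was higher. Ccnd2 was lower in 6 of 7 libraries, at 3.25 (2.39 to 4.52) against 7.36 (1.60 to 9.82) UMIs per 10000 (-0.76, SE 0.20, adjusted p 0.0226), between the non-cycling Ccl21a-high cells and the cycling Ccl21a-low cells. Hmgn2, a nucleosome-binding protein, was the only one of 16 high mobility group, histone and tubulin genes that was called (-0.58). Gas1 was higher by 1.46 (SE 0.30, adjusted p 0.00459), at 1.41 (0.795 to 5.42) against 0.174 (0.0803 to 1.05).

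**Figure D4:**
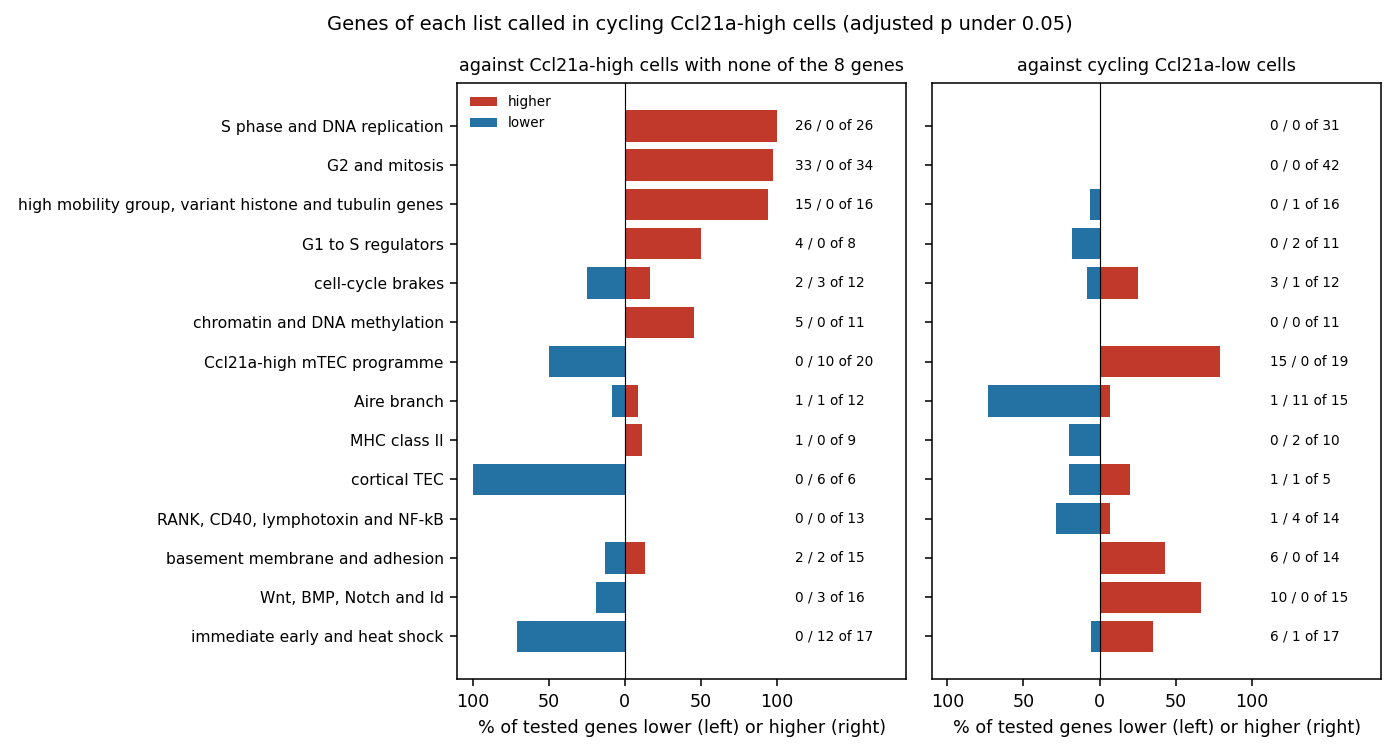
Percent of the tested genes of each list that were called higher (red, right) or lower (blue, left) in cycling Ccl21a-high cells, against non-cycling Ccl21a-high cells (left panel) and cycling Ccl21a-low cells (right panel); numbers give higher / lower of tested. The tested genes of the cycle lists are called almost whole in the left panel, where the level filter could admit a gene through the cycling cells alone. No gene of the S phase and G2 and mitosis lists is called in the right panel. The Ccl21a-high programme has 10 of 20 genes lower on the left and 15 of 19 higher on the right.

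The same 111 cells enter both comparisons, so their calls are given side by side without a test of overlap. Over all genes tested, 7.46% were higher and 6.56% lower in the first comparison, and 7.12% and 5.09% in the second. A total of 82 genes were lower than in non-cycling Ccl21a-high cells and higher than in cycling Ccl21a-low cells, counting Ccl21b.1, a near copy of Ccl21a whose place follows from the rule. Mgp is one of them, with 0.403 (0.134 to 2.48) UMIs per 10000 in the Ccl21a-low cells, and Gpx3, Id3, Ctsl, Sparc and Gas1 are others. In the opposite order, 18 genes were higher than in the non-cycling and lower than in the cycling Ccl21a-low cells, among them Ccnd2, Hmgn2, Gapdh and the nucleolar genes Ncl and Npm1. Ncl was at 5.79 (3.42 to 6.67) against 3.64 (2.98 to 5.05) in the non-cycling and 8.40 (4.97 to 11.0) in the Ccl21a-low cells. Tbata was lower than in both, with a difference of -1.23 from the cycling Ccl21a-low cells (SE 0.28, adjusted p 0.00907, lower in 5 of 7 libraries).

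Whether the genes that go with cycling differ between Ccl21a-high and other TECs was tested as a difference of differences, with the 3000 Ccl21a-low cells that had none of the 8 genes as the second non-cycling class. That class mixes Aire-expressing, late and other TECs. In the isotype libraries of weeks 2 and 10, 180 of 424 and 206 of 594 of its cells had no Aire UMI. Among cycling Ccl21a-low cells 2 of 161 and 14 of 176 had none. Cell type and cycling therefore cannot be told apart in the Ccl21a-low classes. Of 5791 genes, 239 (4.13%) had a higher and 71 (1.23%) a lower signed cycling difference (log2 of cycling over non-cycling) in Ccl21a-high than in Ccl21a-low cells. A higher value can be a larger rise or a smaller fall. No gene of the S phase list (25 tested) or the G2 and mitosis list (35 tested) was called in either direction. Without anti-RANKL week 4, however, 2 of 24 and 5 of 33 of them had higher differences, where 352 of all 5756 genes did. At matched depth 4 of 34 G2 and mitosis genes did, where 227 of all 5605 genes did. Cytosolic ribosomal protein genes had lower differences in 2 of 81 cases over all libraries, but in 58 of 81 without anti-RANKL week 4 and in 48 of 81 at matched depth. The list of late and other TEC types had 5 of 8 genes with higher differences and a median of 1.03, and the part of those cell types in the result was not tested. Cdkn1a, the CDK inhibitor p21, differed by 1.63 (SE 0.25, adjusted p 0.00112): its mean level was 1.34 UMIs per 10000 in cycling and 1.06 in non-cycling Ccl21a-high cells, and 0.608 and 2.62 in the Ccl21a-low classes. Apoe (2.01, SE 0.24, adjusted p 0.000119) and Ly6a (1.96, SE 0.19, adjusted p 2.17e-05) were lower in cycling cells by less in the Ccl21a-high than in the Ccl21a-low classes. Apoe was at 25.8 and 32.8 UMIs per 10000 in cycling and non-cycling Ccl21a-high cells and at 3.51 and 22.5 in the Ccl21a-low classes, and Ly6a was at 8.89 and 11.8 and at 1.42 and 8.65. Tubb5, a beta tubulin, rose with cycling in both, from 3.8 to 13.0 and from 2.17 to 16.9, and the difference was -0.93 (SE 0.17, adjusted p 0.00346). Without the anti-RANKL week 4 library 352 genes were higher and 227 lower, and without the deepest 5% of cells, which also dropped anti-RANKL week 2, 48 and 3.

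Aire UMIs were found in 27 of the 111 cells (24.3%), of which 17 had a single UMI and the highest had 28. By library 22.2%, 50.0%, 23.8%, 16.7%, 6.67%, 40.0% and 20.0% of the cycling Ccl21a-high cells had one. Among the cells with a Ptprc UMI the shares were 18.8%, 52.9%, 79.2%, 26.3%, 4.17%, 54.5% and 45.5%, at median depths of 12350, 13124.5, 10901, 9221.5, 3097.5, 8626 and 8663 UMIs. In 5 of 7 libraries the share in the cycling Ccl21a-high cells was at or below that of the cells with a Ptprc UMI. With cells thinned to 2000 UMIs the mean over libraries was 4.55% in cycling and 4.87% in non-cycling Ccl21a-high cells (difference -0.321 percentage points, higher in 3 of 7 libraries, exact sign-flip permutation test, two-sided, p 0.781, adjusted p 0.781). In cycling Ccl21a-low cells it was 41.4%, higher in 7 of 7 libraries (difference -36.9, exact sign-flip permutation test, p 0.0156, adjusted p 0.0625). Of all non-cycling Ccl21a-high cells 9.82% had an Aire UMI without thinning, while the shares of the cells with a Ptprc UMI reached 79.2%, so that the latter is no floor for free RNA. How much of the Aire signal of the 111 cells is free RNA was not tested.

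The 27 cells with an Aire UMI had a median depth of 22771 UMIs, against 12018.5 in the 84 without one. Their mean Ccl21a level was 149 and 171 UMIs per 10000 and their Krt5 level 22.4 and 20.7, and Aire itself was at 1.22 in the 27 cells against 5.10 in all cycling Ccl21a-low cells. Fezf2 had a UMI in 88 of the 111 cells (79.3%). After thinning 35.3% of cycling and 29.2% of non-cycling Ccl21a-high cells had one, a difference of 6.06 percentage points, higher in 6 of 7 libraries (exact sign-flip permutation test, two-sided, p 0.0781, adjusted p 0.125), and 52.3% of cycling Ccl21a-low cells.

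ZsGreen, the mark of past Aire use, was measured in the Aire trace library alone. It had a UMI in 18 of 36 cycling Ccl21a-high cells (50.0%, exact 95% interval 32.9 to 67.1%), 258 of 690 non-cycling Ccl21a-high cells (37.4%, 33.8 to 41.1%) and 42 of 55 cycling Ccl21a-low cells (76.4%, 63.0 to 86.8%). Cells with a Ptprc UMI had it in 44 of 69 cases (63.8%). At 2000 UMIs per cell the shares were 9.03%, 11.8%, 31.8% and 29.6% in the same order. Cycling Ccl21a-high cells lay below the cells with a Ptprc UMI, and so did non-cycling Ccl21a-high cells of the same library. Whether a ZsGreen UMI marks past Aire use in a given cell or free RNA was not tested.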

How the data were processed

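Cells were sequenced with 10x droplet chemistry and, per the submitters' processing notes and the study's methods, aligned to mm10 with Cell Ranger 2.2.0 and filtered and normalized with Seurat 2.3.4. The authors deposited 1 table per library, in which a gene's UMIs per 10000 of the cell are given as natural log values after adding 1. Whole UMIs came out of these values in every cell, within 0.001 of a whole number, and gave each cell's depth, with library medians of 4299.5 to 16809 UMIs.

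The rule's thresholds gave the 111 cells and their comparison classes. The members and gene lists were chosen with earlier results of these data known. For each class and library with at least 5 cells the mean UMIs per 10000 was taken, and limma 3.58.1 in R 4.3.3 was run on paired differences of log2(mean + 0.5), with a trended prior, over genes with a mean level of at least 0.2. The pairing comes from both classes sharing a library. A gene was called at a Benjamini-Hochberg adjusted p under 0.05. A pseudocount of 0.5 understates changes of low genes. Libraries were replicates across treatments and ages, so p-values measure the spread between these 7 samples. Genes that chose the cells were not tested. Near-identical copies of Ccl21a may share its reads, so its level is uncertain, and Ccl21b.1 stayed among the genes tested.

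Genes named were members of the lists, genes named in the paper, and the 12 largest differences in each direction per comparison that had the same sign in every library. Npm1 and, in the closing section, H2-Q7, Psmb8, B2m, Tap1, Lgals1, Tmsb10 and Timp1 fall outside this rule and were chosen after their values were seen. Single values were compared by exact two-sided sign-flip permutation tests over libraries. Shares carry exact (Clopper-Pearson) intervals, and thinned values are means of 20 thinnings. No doublet caller was run. The fit was tested on simulated data with known changes. Alternatives varied the pseudocount, the level and cell minimums, the thresholds, depth, pairing and the libraries used. Counting and plotting used matplotlib 3.10.9, pandas 2.3.3, scipy 1.17.1 and numpy 2.4.6 under Python 3.11.15. Promoter sequences are from RefSeq (GRCm38.p6).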

Additional observations from a re-analysis of the deposited data

Results flagged for a closer look

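The signed cycling difference of some genes differed between Ccl21a-high and Ccl21a-low TECs when the difference itself was tested. In limma's test of the difference of differences over 7 libraries 239 genes had a higher and 71 a lower signed cycling difference (log2 of cycling over non-cycling) in Ccl21a-high cells. Cdkn1a, Apoe, Ly6a and Gas1 were among the former, and Hes6 and Tubb5 were among the latter. Apoe and Ly6a were lower in cycling cells by less in the Ccl21a-high than in the Ccl21a-low classes. Beside these counts, the summed level of T cell markers reached a mean of 30.9 UMIs per 10000 in the 9 cycling Ccl21a-low cells of the anti-RANKL week 4 library, of which 3 had such a UMI. Without that library the counts were 352 and 227. They were 151 and 33 without cells with a T cell marker UMI, 55 and 25 without pairing by library, 48 and 3 without the deepest 5% of cells and 22 and 3 with every gene tested. The list of late and other TEC types had 5 of 8 tested genes with a higher difference (median 1.03), and Ccl5, Gng13 and Bpifa1 led the higher differences. The non-cycling Ccl21a-low class mixes such cells, and their part in the result was not tested.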

How the results depend on the processing

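Limits: each library had 5 to 36 cycling Ccl21a-high cells, so genes of low level could not be read per library, and counts of called genes moved with depth, the level minimum and the libraries used. The cause of these moves was not tested.

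Against non-cycling cells, the counts were 273 higher and 129 lower at matched depth, 275 and 202 without cells with an Aire UMI (6 libraries, without anti-RANKL week 10), and 241 and 179 without the deepest 5% of cells, an alternative chosen after seeing the data. With Ccl21a above 5 and 6 libraries, also without anti-RANKL week 10, 210 were lower, and Apoe turned to 0.053 at matched depth. Leaving out 1 library gave 315 to 482 higher and 228 to 404 lower, with 228 without isotype week 10 and 243 without anti-RANKL week 2.

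Against cycling Ccl21a-low cells, the counts were 250 and 183 with a mean level of at least 0.5, 139 and 75 with every gene tested, 250 and 175 with Ccl21a above 5, 251 and 175 without cells with a T cell marker, and 158 and 82 without the deepest cells. The lower genes numbered 433 with at least 2 cycle genes, 135 with at least 4 and 528 at matched depth. The settings with Ccl21a above 5, at least 4 cycle genes and no T cell marker also lost anti-RANKL week 10, matched depth lost anti-RANKL week 4, whose removal alone gave 502, and the setting without the deepest cells lost anti-RANKL week 2. Leaving out 1 library gave 260 to 524 higher and 151 to 502 lower. The lower count was 184 without the Aire trace library, 151 and 156 without isotype weeks 2 and 10, and 502 and 167 without anti-RANKL weeks 4 and 10, and the higher count was 260 without isotype week 2.

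For the difference of differences, the counts were 155 higher with a mean level of at least 0.5, 22 and 3 with every gene tested, 151 and 33 without cells with a T cell marker, and 48 and 3 without the deepest cells. The lower differences numbered 144 with at least 10 cells per class, 171 with summed UMIs, 46 with at least 4 cycle genes and 157 at matched depth. With summed UMIs all 7 libraries entered, the other settings lost the same libraries as above, and that with at least 10 cells per class used 5 libraries, without anti-RANKL weeks 4 and 10. Ribosomal protein genes made up 43 of the 144, 39 of the 171 and 48 of the 157. Leaving out 1 library gave 153 to 352 higher and 34 to 227 lower. They were 159 and 38 without the Aire trace library and 153 and 34 without isotype week 2, and the lower ones were 46, 227 and 39 without anti-RANKL weeks 2, 4 and 10.

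Without the pairing by library (no replicate block) the counts were 313 and 212 against non-cycling cells, 353 and 226 against cycling Ccl21a-low cells, and 55 and 25 for the difference of differences. Replicate numbers in the labels pair no samples, since each group is 1 library.

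The cycling share of Ccl21a-high cells was 6.06% (Aire trace) and 15.0% (isotype week 2) with at least 2 cycle genes, and 2.22% (Aire trace) and 4.14% (isotype week 10) with Ccl21a above 5. Thinned to 2000 UMIs it was 1.47%, 2.86%, 2.52%, 0.512%, 0.851%, 1.02% and 0.573% in the libraries from Aire trace to anti-RANKL week 10, and thinned to 4000 UMIs it was 2.56% (Aire trace) and 6.16% (isotype week 10). With Ccl21a above 5, 18.7%, 2.89% and 3.05% of cycling cells of the Aire trace and both isotype libraries were Ccl21a-high. For the cycling share of Ccl21a-high cells, the isotype libraries exceeded every anti-RANKL library in all 7 settings run. As a share of all cells without a Ptprc UMI, anti-RANKL week 6 (1.39%) lay above isotype week 2 (1.06%). ZsGreen at 2000 UMIs was at 9.03%, 11.8% and 31.8%.

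Without thinning, the Aire share of cycling Ccl21a-high cells exceeded that of non-cycling cells by 10.9 percentage points, and with thinning it did so by 0.551 without anti-RANKL week 10 (range -1.02 to 0.551 without 1 library). Genes per cell, on the log2 scale, then differed by 0.518 from non-cycling and by -0.15 from cycling Ccl21a-low cells, the Aire share by -49.5 from the latter, and median UMIs by 0.86 from non-cycling cells, and all of these values but the -0.15 passed the threshold (exact sign-flip permutation test, adjusted p 0.0313).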

Other observations

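A total of 28 genes were higher in cycling Ccl21a-high cells than in both comparison classes. Over all genes, 7.46% were higher in the first and 7.12% in the second comparison, and the overlap was not tested. Of the 28 genes, 4 are named here, singled out after their values were seen and with no list of like genes counted. H2-Q7, a nonclassical class I molecule, was higher by 0.48 on the log2 scale than in non-cycling Ccl21a-high cells (SE 0.07, limma adjusted p 0.000113) and by 0.49 than in cycling Ccl21a-low cells (adjusted p 0.0145). The immunoproteasome subunit Psmb8 was higher by 0.38 (adjusted p 0.00981) and 0.78 (adjusted p 0.0333). B2m, the light chain of class I, was higher by 0.17 (adjusted p 0.0322) and 0.77 (adjusted p 0.00459), and the peptide transporter Tap1 by 0.32 (adjusted p 0.0358) and 0.75 (adjusted p 0.00590). Each was higher than in non-cycling cells in 7 of 7 libraries. B2m was no longer called against cells of matched depth, and only H2-Q7 of the 4 stayed called against non-cycling cells without pairing.

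The 28 genes also held Lgals1 and Tmsb10, a galectin and an actin-binding thymosin, and the secreted factors Mdk and Timp1. Against non-cycling Ccl21a-high cells, where 7.46% of all genes were higher and 6.56% lower, 9 of 71 oxidative phosphorylation genes were higher and 2 lower, and 3 of 81 cytosolic ribosomal protein genes were higher and 8 lower. Of 9 MHC class II genes, H2-Eb1 was the one that was called, at 0.18. The ribosomal and class II shares are near those over all genes.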
